A study of Mus musculus with 16 samples.

Results

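The windows described here are stretches of 1 kb that are dense in CpGs and methylated in mouse embryonic stem cells (mESCs). They were chosen by measured values. An autosomal window had to hold 30 or more covered CpGs in each of the 2 mESC shCtrl libraries, with a mean methylation of 70% or more in both. Of 201320 autosomal windows with a covered CpG, 7232 had that many CpGs, and 6 of these were methylated to that level, or 0.0830% of the CpG-dense windows. The 6 windows lie at Plagl1, Hcn2, Lmtk3, Shank2, Ccin and Atxn1. Because the mESC shCtrl libraries chose them, comparisons with that group are given as values with no test.

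Methylation was measured by reduced representation bisulfite sequencing (RRBS), which reads CpG-rich fragments after bisulfite has converted unmethylated cytosines, so that reads left unconverted give the methylation percentage of a CpG. The 16 libraries were 2 replicates of each of 8 groups, all from E14, a mouse embryonic stem cell line grown in serum with LIF. YP-mESCs were kept for about 14 passages and OP-mESCs for about 70. OP-S33Y #1 and OP-S33Y #2 were each 1 clone of young-passage cells that overexpress the stable S33Y mutant of β-catenin, the effector of the Wnt pathway, and were then cultured like OP-mESCs. The other groups were young-passage mESCs with a lentiviral control hairpin (shCtrl) or a hairpin against β-catenin (shβcat #1), and embryoid bodies (EBs), aggregates of differentiating cells, of both at day 8. The study calls the 2 replicates of the YP-mESC, OP-mESC and S33Y lines biological, and for the hairpin groups the sources used here do not say whether replicates were separate cultures. Where they were not, p-values measure only the spread between samples, which may be technical. Libraries held 18919219 to 40519010 reads on CpGs, and 0.242% to 0.449% of reads on mitochondrial CpGs were called methylated. Chromosome 13 was missing from YP-mESC replicate 2, and the fewest CpGs (413282) were covered in OP-mESC replicate 2, so that 94 of 96 values of the windows could be given. Mean autosomal methylation was 21.6% to 30.2% in the 8 libraries of the passage and S33Y groups and 32.9% to 40.8% in the 8 hairpin libraries. Each mean is over the autosomal CpGs covered in that library, so that unlike CpGs are averaged. They numbered 406288 to 867100 in the first set and 903835 to 1137153 in the second. What part mean level or coverage has in the differences between those sets of libraries was not tested.

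Many CpG-rich stretches of a mammalian genome are promoters, and these are usually unmethylated in every cell type. Dense methylation is known there at imprinted control regions (ICRs), where a single parental allele is methylated, and at genes silenced in the soma. CpG-rich coding exons are another class, since methylation within transcribed gene bodies is common. Passive loss at division and the activity of DNMT and TET enzymes both act on such methylation.

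The stretches below show where the methylated CpGs sit in 4 of the windows, 1 at a promoter and 3 in coding exons. They are taken from the plus strand of mm9, 5′ to 3′, and each is the run of at most 200 bases outside annotated UTRs with the most CpGs covered in both mESC shCtrl libraries. Capitals mark those CpGs, and other CpGs are in lower case.
Plagl1, chr10:12810846-12810999: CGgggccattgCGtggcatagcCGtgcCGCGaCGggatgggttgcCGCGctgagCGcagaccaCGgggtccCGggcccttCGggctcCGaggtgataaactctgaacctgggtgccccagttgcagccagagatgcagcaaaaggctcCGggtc
Lmtk3, chr7:53050517-53050705: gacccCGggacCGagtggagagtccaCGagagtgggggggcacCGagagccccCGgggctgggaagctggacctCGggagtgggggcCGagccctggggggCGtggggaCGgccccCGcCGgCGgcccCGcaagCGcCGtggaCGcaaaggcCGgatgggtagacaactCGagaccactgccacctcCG
Shank2, chr7:151596009-151596208: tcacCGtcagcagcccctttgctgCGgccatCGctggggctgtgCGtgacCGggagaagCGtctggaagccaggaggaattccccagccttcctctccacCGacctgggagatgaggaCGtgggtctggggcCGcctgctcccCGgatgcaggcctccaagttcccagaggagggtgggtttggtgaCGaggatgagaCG
Atxn1, chr13:45663588-45663765: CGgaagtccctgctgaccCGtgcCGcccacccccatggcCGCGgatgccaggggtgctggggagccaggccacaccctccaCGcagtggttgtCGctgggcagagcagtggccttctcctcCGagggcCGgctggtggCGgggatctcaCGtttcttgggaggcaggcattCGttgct
The Plagl1 stretch lies in the first intron and the other 3 lie in coding exons. Their 14, 19, 12 and 12 capital CpGs, in the order printed, had mean methylation of 96.1%, 81.9%, 81.6% and 93.1% in mESC shCtrl.

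Plagl1 encodes a zinc-finger transcription factor and is imprinted, with the maternal allele methylated at its promoter. Its window (mm9 chromosome 10, 12810000 to 12810999) spans the start of the gene on the plus strand and overlaps the Plagl1 ICR, and its 42 CpGs seen in any library fall in the first exon, annotated as UTR, and in the intron after it. Hcn2 encodes a pacemaker channel of heart and neurons. The Hcn2 window (chromosome 10, 79198000 to 79198999) holds the end of its last coding exon and its 3′ UTR, and on the minus strand the 3′ end of Polrmt, the mitochondrial RNA polymerase, where no CpG was covered. Lmtk3 encodes a kinase of the lemur tail family, and its window (chromosome 7, 53050000 to 53050999) lies in a coding exon of 2438 bases. The Shank2 window (chromosome 7, 151596000 to 151596999) lies in a coding exon of 2407 bases of this postsynaptic scaffold gene. The Ccin window (chromosome 4, 43997000 to 43997999) lies in the single exon of calicin, a protein of the sperm head. Atxn1 encodes ataxin-1, whose expanded polyglutamine tract causes a spinocerebellar ataxia, and its window (chromosome 13, 45663000 to 45663999) covers coding exon and UTR on the minus strand.

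Only the Plagl1 window overlapped one of 20 ICRs of the study's list. ICRs held 4 CpG-dense windows in all, and the other 3, at Gnas, Grb10 and Commd1, had 42.9% to 50.3% in the lower mESC shCtrl library, against 95.4% at Plagl1. Among lists of genes, CpG-dense windows within 1 kb of a start numbered 16 for imprinted genes, with 1 member. They numbered 40 for lineage transcription factors, 9 for DNA methylation genes, 2 for germline genes and 2 for neural genes, with no member. Hcn2, Lmtk3, Shank2, Atxn1 and Ccin are on none of these lists, and the Ccin window lies 624 bases from the start of Ccin. The median of the lower mESC shCtrl mean was 2.85%, 2.75%, 1.94%, 35.7% and 14.7% in these lists.

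The following levels in mESC shCtrl are those that chose the windows and are a description. Of 7232 CpG-dense windows, 6962 had less than 10% in the lower mESC shCtrl library, 244 had 10% to 40%, 20 had 40% to 70% and none had 70% to 80%. The windows nearest above the limit were Lmtk3 at 83.2%, Shank2 at 83.8%, Hcn2 at 84.2%, Ccin at 88.0% and Atxn1 at 93.5%. Those nearest below it were at Nfatc2 with 69.5%, Hivep1 with 61.2%, Repin1 with 59.9%, the neighbouring Lmtk3 window with 59.2% and Pmaip1 with 56.9%. All 5 windows below the limit overlap coding exons, and their EB shCtrl means were higher, from 78.3% at Pmaip1 to 87.8% at Nfatc2. In libraries that the choice did not use, other CpG-dense windows also reached 70%, namely 21 to 24 of 7226 in each EB library, 1 in each mESC shβcat #1 and OP-S33Y #2 library and 1 in OP-S33Y #1 replicate 1.

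**Figure D1:**
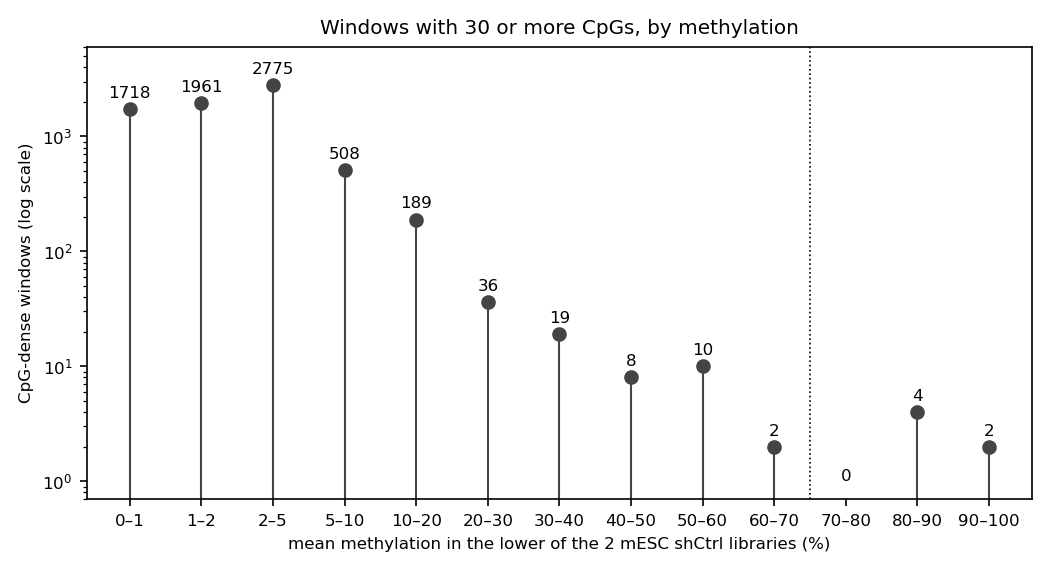
Number of CpG-dense windows (log scale) by mean methylation in the lower of the 2 mESC shCtrl libraries, with the 70% limit dotted. No window lies between 70% and 80%, and the 6 members lie above 80%.

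Methylated windows with 10 to 29 covered CpGs were used for comparison here and below. They were also chosen by mESC shCtrl, at 70% or more in both libraries. The sequences of the 6 windows varied. Their GC content was 55.8% at Ccin to 66.6% at Lmtk3 and 70% at Hcn2, with a median of 62.9% against 64.2% over the 7226 other CpG-dense windows and 53.9% over 1760 methylated windows with 10 to 29 CpGs. CpG observed over expected, the CpG count set against that expected from C and G content, was 0.867 at Hcn2, 0.729 at Plagl1, 0.630 at Ccin, 0.489 at Lmtk3, 0.463 at Shank2 and 0.410 at Atxn1. The median was 0.815 over the other CpG-dense windows and 0.384 over the methylated windows with fewer CpGs, so that the coding exons of Lmtk3, Shank2 and Atxn1 were nearer to the second set. Each window held 8 to 10 CCGG sites, with a median of 11 over the other CpG-dense windows. The motif TGCCGC, which the imprint factor ZFP57 is known to bind when methylated, was searched on both strands and can share its last base with a CCGG. It occurred 4 times in the Plagl1 window, 2 of them in the stretch printed above, and 1 time in the Atxn1 window. The other 4 windows held none. It was found in 61.4% of the other CpG-dense windows, 25.3% of the methylated windows with fewer CpGs and 46.1% of all 19277 windows with 10 or more CpGs.

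The mean methylation of the Plagl1 window was 72.7% and 61.3% in YP-mESCs and 2.85% and 5.58% in OP-mESCs. OP-S33Y #1 had 93.4% and 94.3%, and OP-S33Y #2 had 90.9% and 91.6%. The mESC libraries had 95.4% and 96.1% with shCtrl and 95.9% and 96.3% with shβcat #1, and the EB libraries had 94.3% and 95.7% with shCtrl and 95.02% and 93.6% with shβcat #1. Plagl1 thus had 3 levels that do not overlap, near 0 in OP-mESCs, intermediate in YP-mESCs and over 90% in the other 12 libraries. The values rest on 29 to 42 CpGs and 755 to 2359 reads in a library, summed over CpGs. Within mESC shCtrl, each of 40 CpGs covered in both replicates was at 87.3% or more.

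The Hcn2 window had 62.2% and 60.6% in YP-mESCs, 70.4% and 71.6% in OP-mESCs and 70.4% and 73.8% in OP-S33Y #1. In OP-S33Y #2 it was at 14.9% and 15.7%. The shCtrl and shβcat #1 mESCs had 86.3% and 84.2%, and 88.0% and 85.6%. EBs had 92.0% and 90.4% with shCtrl and 85.5% and 86.7% with shβcat #1. The 2 libraries of OP-S33Y #2 were the only ones under 60%. OP-mESC replicate 2 covered 13 CpGs of this window, against 40 to 60 in the other libraries.

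At Lmtk3, YP-mESCs had 71.1% and 77.2%, OP-mESCs 62.7% and 59.8%, OP-S33Y #1 75.4% and 74.9% and OP-S33Y #2 65.9% and 61.0%. The hairpin libraries lay higher, from 83.2% in mESC shCtrl replicate 2 to 90.7% in EB shCtrl replicate 1. The Shank2 window followed the same order of groups, with 60.3% and 64.2% in YP-mESCs, 58.0% and 50.2% in OP-mESCs, 73.2% and 74.6% in OP-S33Y #1. OP-S33Y #2 had 57.4% and 56.5%. Its hairpin libraries ranged from 83.8% to 92.8%. At Ccin the values were 79.6% and 79.7% in YP-mESCs, 71.0% and 69.6% in OP-mESCs, 84.3% and 82.3% in OP-S33Y #1. For OP-S33Y #2 they were 73.2% and 74.2%. Ccin was at 84.2% to 91.6% in the hairpin libraries, where mESCs and EBs overlapped. In all 3 windows the lowest group mean was that of OP-mESC, followed by OP-S33Y #2, YP-mESC, OP-S33Y #1 and the 4 hairpin groups. As neighbours in this order, OP-mESC and OP-S33Y #2 overlapped at Lmtk3 and Shank2, and YP-mESC and OP-S33Y #1 overlapped at Lmtk3. At Ccin, OP-S33Y #1 also overlapped a hairpin group, with replicate 1 at 84.25% against 84.18% in EB shβcat #1 replicate 2.

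The Atxn1 window varied least, from 88.6% to 95.8% over 14 libraries. It had 90.3% in YP-mESC replicate 1, 88.6% in OP-mESC replicate 1, 94.6% and 92.1% in OP-S33Y #1. Both OP-S33Y #2 libraries had 89.1%. The range of group means was 6.57 percentage points at Atxn1, against 20.1 at Ccin, 29.3 at Lmtk3, 37.0 at Shank2, 75.9 at Hcn2 and 91.9 at Plagl1. As a measure of counting error, the 95% Wilson interval of a window's methylated reads had a median half-width of 1.91 percentage points. The largest was 6.12 at Atxn1 in OP-mESC replicate 2, whose level is not given. Next came 5.68 at Hcn2 in that library. Reads that span several CpGs are counted at each, so that these intervals are too narrow.

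**Figure D2:**
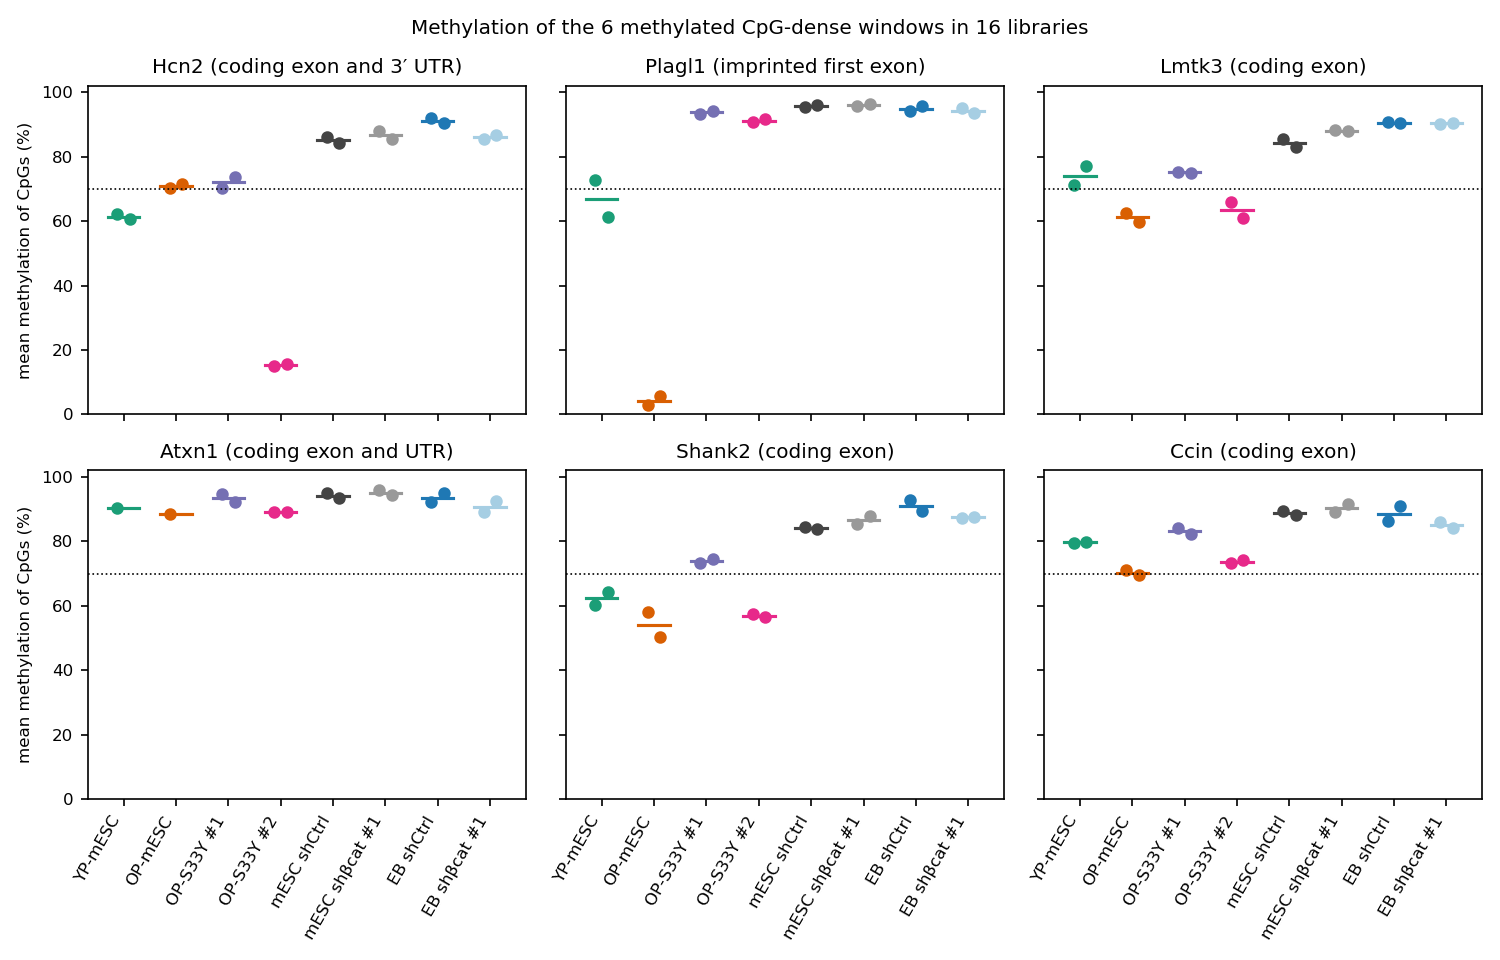
Mean methylation of the CpGs of each window (%) in 16 libraries, with a point for each library, a line for the mean of its group and the 70% limit dotted. OP-mESCs lie near 0 at Plagl1 and OP-S33Y #2 lies near 15% at Hcn2, and the 8 hairpin libraries lie above 80% in every window.

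Comparing OP-mESCs with YP-mESCs asks what prolonged culture does to these windows. Methylation fell at Plagl1, and smaller differences at Ccin and Lmtk3 passed the test but depended on single replicates and on the method. The test at Plagl1 also depended on the YP-mESC replicates. A window was compared by its reads, summed over CpGs covered in all 4 libraries, in a quasi-binomial F test across all windows with limma's squeezed dispersions, and a call needed more than 25 percentage points beside an adjusted p under 0.05. Of the 6 windows, 4 could be tested, and 1 was called lower (Plagl1) and none higher, where 0.32% of 9683 windows were called lower and 0% higher. Over all windows, 9.58% had an adjusted p under 0.05 in either direction at any size of difference. At 29 common CpGs of the Plagl1 window, the mean was 66.8% ± 12 (SD, n = 2) in YP-mESCs and 4.51% ± 1.5 in OP-mESCs. The difference of -62.2 points had an adjusted p of 6.3e-06. All 29 CpGs were lower by more than 25 points, and at none of them did the replicates of the groups overlap. CpGs of a window share reads, so that counts of CpGs here and below are a description and not independent support. As means of replicates, these CpGs ranged from 0% to 11.4% in OP-mESCs and from 50.5% to 77.4% in YP-mESCs. In limma on transformed levels the adjusted p was 0.00984. The exon part and the intron part had 4.18% ± 4.3 and 4.87% ± 1.5 (SD, n = 2) in OP-mESCs.

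Ccin fell by 10.5 points, from 80.2% ± 1.6 to 69.7% ± 0.17 (SD, n = 2), over 21 common CpGs. Its adjusted p was 0.00139, and at 15 of the 21 CpGs OP-mESCs were lower with no overlap of replicates. Lmtk3 fell by 11.0 points, from 71.7% ± 4.3 to 60.6% ± 1.3 (SD, n = 2), with 20 of 21 CpGs lower and an adjusted p of 0.0259. Neither passed in limma, with adjusted p of 0.0764 at Ccin and 0.13 at Lmtk3, and Lmtk3 did not pass without OP-mESC replicate 2, with -9.96 points and 0.369. Without YP-mESC replicate 1 and 2 the adjusted p were 0.56 and 0.327 at Ccin and 0.64 and 0.55 at Lmtk3, and with 1 overdispersion shared by all windows they were still 1 and 0.201, and 1 and 0.711. At Shank2 the difference was -5.93 points over 15 CpGs, with an adjusted p of 0.0870. Hcn2 shared 7 CpGs between the 4 libraries, too few for the test, and 6 of these were higher in OP-mESCs. Atxn1 had no CpG in YP-mESC replicate 2. Among the methylated windows with 10 to 29 CpGs, 7 of 155 tested (4.52%) were called lower, and their median difference was -5.56 points. The 5792 other CpG-dense windows tested had 3 called lower and a median difference of 0.00583 points. Without YP-mESC replicate 1 or 2, and with the replicate number as a block, no window of the whole table was called in this comparison. The Plagl1 difference was then -53.9, -70.5 and -62.2 points, with adjusted p of 0.482, 0.188 and 0.123.

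**Figure D3:**
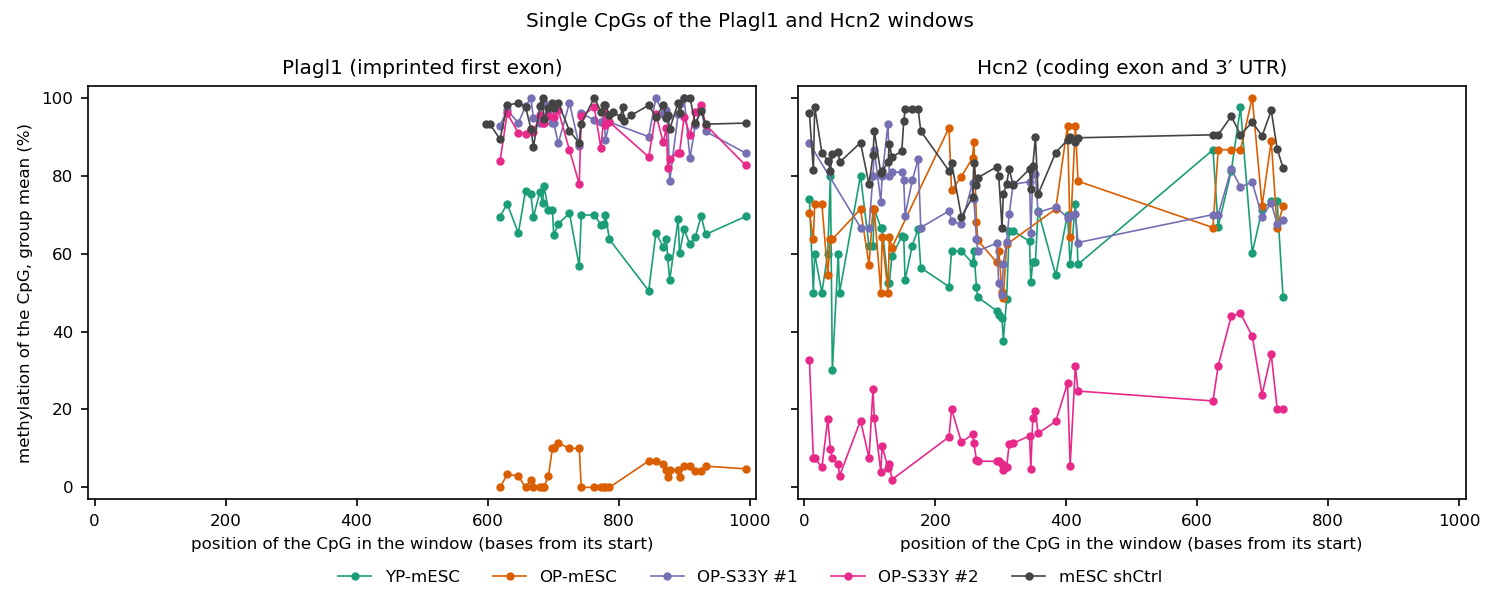
Methylation of single CpGs (%, mean of the replicates that cover them) against position in the window, in the passage groups, the S33Y clones and mESC shCtrl. Among CpGs covered in both replicates, those of Plagl1 reach at most 11.4% in OP-mESCs and those of Hcn2 at most 44.7% in OP-S33Y #2.

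The OP-S33Y clones were set against YP-mESCs to ask how windows stand after long culture with stable β-catenin. These comparisons and that of OP-mESCs share the YP-mESC libraries, so that they are not independent. Each clone is 1 line and was cultured longer than YP-mESCs, so that mutant, clone and passage cannot be told apart. In OP-S33Y #1, methylation rose at Plagl1, and smaller differences at Shank2 and Hcn2 also passed the test. All of these, that at Plagl1 included, depended on single replicates and on the method. Of 5 windows tested, 1 was called higher (Plagl1) and none lower, where 0.0758% of 14511 windows were called higher, 0.0482% lower and 4.17% had an adjusted p under 0.05 at any size. At Plagl1 the mean over 32 CpGs was 66.8% ± 9.1 in YP-mESCs and 93.9% ± 0.64 in the clone (SD, n = 2). The rise of 27.1 points had an adjusted p of 0.00165. It did not pass in limma on transformed levels, with an adjusted p of 0.0517, and was 20.7 points without YP-mESC replicate 2. No window of the table was called without either YP-mESC replicate or with the replicate block. Shank2 rose by 12.7 points over 28 CpGs, from 61.2% ± 1.3 to 73.9% ± 1.0 (SD, n = 2), with an adjusted p of 0.00211. Hcn2 rose by 9.21 points over 34 CpGs, with an adjusted p of 0.0170. In limma the adjusted p were 0.0912 at Shank2 and 0.233 at Hcn2, and without OP-S33Y #1 replicate 2 Hcn2 had 6.96 points and 0.129. Without YP-mESC replicate 1 and 2 they were 0.806 and 0.516 at Shank2 and 0.806 and 0.606 at Hcn2, and with the shared overdispersion still 1 and 0.0794, and 1 and 0.443. The differences were 3.33 points at Ccin and 1.41 points at Lmtk3, with adjusted p of 0.362 and 0.854.

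In OP-S33Y #2, methylation fell at Hcn2 and rose at Plagl1, where the tests depended on the YP-mESC replicates. Smaller differences at Lmtk3, Ccin and Shank2 passed the test but depended on single replicates and on the method. Of 5 windows tested, 1 was called lower (Hcn2) and none higher, where 0.17% of 14708 windows were called lower, 0.0476% higher and 6.53% had an adjusted p under 0.05 at any size. The mean over 29 common CpGs of Hcn2 was 62.3% ± 0.70 in YP-mESCs and 18.8% ± 1.0 in the clone (SD, n = 2). This fall of 43.4 points had an adjusted p of 1.87e-10. The clone was lower at each of the 29 CpGs with no overlap of replicates, by more than 25 points at 28. Coding exon and 3′ UTR both had low levels in the clone, 11.0% ± 0.41 over 25 CpGs and 19.4% ± 1.4 over 26 CpGs (SD, n = 2). The 1 kb window upstream, with 6 CpGs, was at 25.2% in OP-S33Y #2, 59.1% in YP-mESCs and 81.0% in OP-S33Y #1. From 2 to 4 kb downstream, 3 windows with up to 6 CpGs were at 92.6% to 94.9% in OP-S33Y #2, and the window 2 kb upstream was at 88.2%. The Hcn2 difference was -45.4 and -44.0 points without YP-mESC replicate 1 and 2, where no window of the table was called and the adjusted p were 0.536 and 0.223. With the replicate block it was 0.117.

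Lmtk3 fell by 11.4 points in OP-S33Y #2 and all 24 common CpGs were lower, with an adjusted p of 0.0161. Ccin fell by 6.20 points over 26 CpGs and Shank2 fell by 4.62 points over 28 CpGs, with adjusted p of 0.00659 and 0.0255. These 3 did not pass in limma, with adjusted p of 0.124 at Lmtk3, 0.231 at Ccin and 0.44 at Shank2, and without OP-S33Y #2 replicate 1 the values were 0.0737, 0.188 and 0.0938. Lmtk3 and Shank2 also failed without replicate 2 of that clone, with 0.223 and 0.213. Without YP-mESC replicate 1 and 2 the adjusted p were 0.541 and 0.551 at Lmtk3, 0.575 and 0.452 at Ccin and 0.592 and 0.539 at Shank2, and with the shared overdispersion none passed either. With a minimum of 20 reads per CpG, Lmtk3 had -8.19 points and 0.141. At Plagl1 the rise was 24.3 points, just under the limit of 25, and all 35 CpGs were higher in the clone with no overlap of replicates. Its adjusted p was 6.75e-06, against 0.536 and 0.326 without YP-mESC replicate 1 and 2, and with a minimum of 20 reads per CpG the difference was 25.1 points and the window was called. The median differences of the methylated windows with 10 to 29 CpGs were 3.37 points in OP-S33Y #1 (573 windows) and -0.532 points in OP-S33Y #2 (619 windows).

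A direct test between the clones was added after their values were seen. Methylation was lower in OP-S33Y #2 at Hcn2, where the test depended on the OP-S33Y #1 replicates. Smaller differences at Shank2, Lmtk3 and Ccin passed the test but depended on single replicates and on the method. Of 6 windows tested, 1 was called lower (Hcn2) and none higher, where 0.0481% of 14561 windows were called lower, 0.00687% higher and 1.96% had an adjusted p under 0.05 at any size. The differences were -52.5 points at Hcn2, -17.3 at Shank2, -12.8 at Lmtk3 and -9.76 at Ccin, with adjusted p of 1.13e-09, 6.74e-05, 0.0103 and 0.00319. At Atxn1 and Plagl1 they were -5.12 and -2.51 points, with adjusted p of 0.0575 and 0.118. The methylated windows with fewer CpGs were also mostly lower in OP-S33Y #2, with a median difference of -4.23 points. Of 560 such windows tested, 91.25% were lower, and 75 were lower and 1 higher with an adjusted p under 0.05. Lower values were thus not limited to the 6 windows. Over 7033 other CpG-dense windows the median difference was 0.128 points. All 35 common CpGs of Hcn2 and all 28 of Shank2 were lower in OP-S33Y #2. Limma gave adjusted p of 0.118 at Shank2, 0.177 at Lmtk3 and 0.197 at Ccin, which did not pass. Without OP-S33Y #1 replicate 1 or 2 no window of the table was called, and Hcn2 had -54.6 and -53.5 points with adjusted p of 0.0797 and 0.853. The other 3 then had 0.645 and 0.878 each, and with the shared overdispersion Lmtk3, Ccin and Shank2 did not pass without replicate 2, nor Lmtk3 and Ccin without replicate 1. Both clones carry the S33Y mutant and each is 1 line, and the cause of their differences was not tested.

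In EBs, shβcat #1 was compared with shCtrl to ask what less β-catenin does in differentiating cells. No window was called lower or higher, where 0% of 18256 windows were called lower, 0.0274% higher and 8.15% had an adjusted p under 0.05 at any size. The quasi-binomial test gave 4 of 6 windows an unadjusted p under 0.05, as it did 3467 of all 18256 windows tested. Limma on transformed levels and a fit with 1 overdispersion shared by all windows also called none. Over the common CpGs, the differences were -5.06 points at Hcn2, -4.76 at Shank2, -3.33 at Ccin, -3.21 at Atxn1, -1.53 at Lmtk3 and -1.06 at Plagl1. Their adjusted p were 0.0616, 0.114, 0.216, 0.151, 0.518 and 0.374. With the shared overdispersion, Hcn2 had an adjusted p of 0.0218. At Hcn2, 41 of 48 CpGs were lower, and the means were 91.0% ± 1.6 and 86.0% ± 0.95 (SD, n = 2). The median difference over 1133 methylated windows with 10 to 29 CpGs was -3.42 points.

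With mESC shCtrl as the group that chose the windows, the following are values only. They average the CpGs covered in each library and not common CpGs, so that unlike CpGs are compared. At Hcn2, mESC shCtrl covered 57 CpGs in each library and YP-mESCs 41 and 51. From mESC shCtrl to mESC shβcat #1 the windows differed by 0.389 (Plagl1) to 3.77 points (Lmtk3), all upward, and the median over 1626 methylated windows with 10 to 29 CpGs was 1.64 points. EB shCtrl was 6.93 points above mESC shCtrl at Shank2, 6.28 at Lmtk3 and 5.92 at Hcn2. It differed by -0.101 at Ccin, -0.708 at Atxn1 and -0.728 at Plagl1. YP-mESCs, from which the hairpin cells were made, were below mESC shCtrl by 28.8 points at Plagl1, 23.9 at Hcn2, 21.9 at Shank2, 10.1 at Lmtk3 and 9.01 at Ccin. The same difference was 6.49 points in the median of 730 methylated windows with 10 to 29 CpGs and 1.77 points in that of 6873 other CpG-dense windows. The mESC shCtrl libraries defined these sets as well, so that their medians here are values only too.

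**Figure D4:**
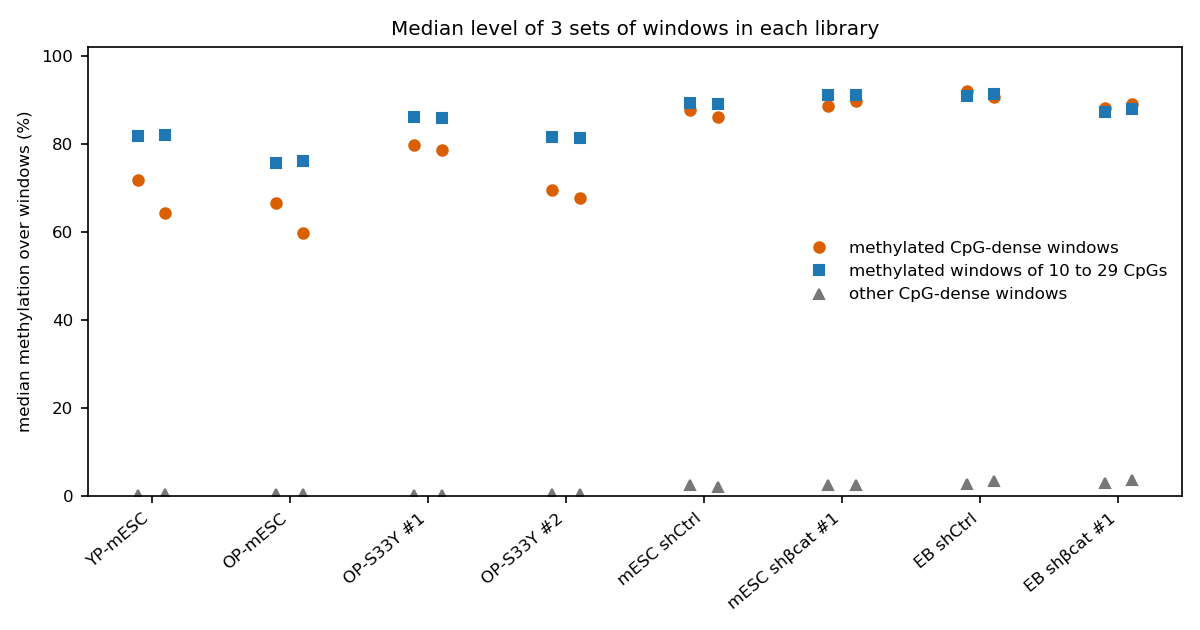
Median methylation (%) over the methylated CpG-dense windows, the methylated windows of 10 to 29 CpGs and the other CpG-dense windows with 10 or more CpGs, 1 point for each library. The first set lies below the second in the 12 mESC libraries, and they are close in the 4 EB libraries. YP-mESC and OP-mESC replicate 2 lack Atxn1.

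Over the 5 windows with 10 or more CpGs in all 16 libraries, which leaves out Atxn1, the median was 67.7% in YP-mESCs, 61.2% in OP-mESCs, 75.15% in OP-S33Y #1, 63.4% in OP-S33Y #2, 85.3% in mESC shCtrl and 91.2% in EB shCtrl, as means of 2 libraries. For the methylated windows with fewer CpGs it was 81.9% ± 0.045, 75.9% ± 0.27, 86.1% ± 0.11, 81.4% ± 0.14, 89.2% ± 0.058 and 91.1% ± 0.21 (SD, n = 2) in these groups. Apart from mESC shCtrl, where the rule set this, all 6 windows were at 70% or more in each mESC shβcat #1, EB and OP-S33Y #1 library. In OP-mESC replicates 1 and 2 that held for 3 of 6 and 1 of 5, in YP-mESC replicates 1 and 2 for 4 of 6 and 2 of 5. It held for 3 of 6 in each OP-S33Y #2 library.

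Single CpGs in the coding exons did not share 1 level. Within mESC shCtrl the lowest CpG was at 60.8% in Lmtk3, 64.5% in Ccin, 71.7% in Shank2 and 80.02% in Atxn1. In YP-mESCs the range over CpGs shared with OP-mESCs was 28.6% to 97.5% at Lmtk3 and 62.1% to 92.9% at Ccin, and in OP-mESCs it was 17.2% to 88.3% and 39.3% to 89.4%. The Lmtk3 exon continued into the window 1 kb upstream, where methylation was 52.2% ± 4.2 in YP-mESCs, 31.2% ± 4.0 in OP-mESCs, 59.96% ± 1.1 in mESC shCtrl and 83.4% ± 1.5 in EB shCtrl (SD, n = 2). Beyond it, the window 3 kb downstream, with 16 to 37 CpGs, was at 4.54% in YP-mESCs and 16.3% in EB shCtrl. At Shank2 the window 1 kb downstream was at 85.7% in YP-mESCs, 81.9% in 1 OP-mESC library and 92.5% in mESC shCtrl. Around Plagl1 no other window within 6 kb had a covered CpG.

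**Figure D5:**
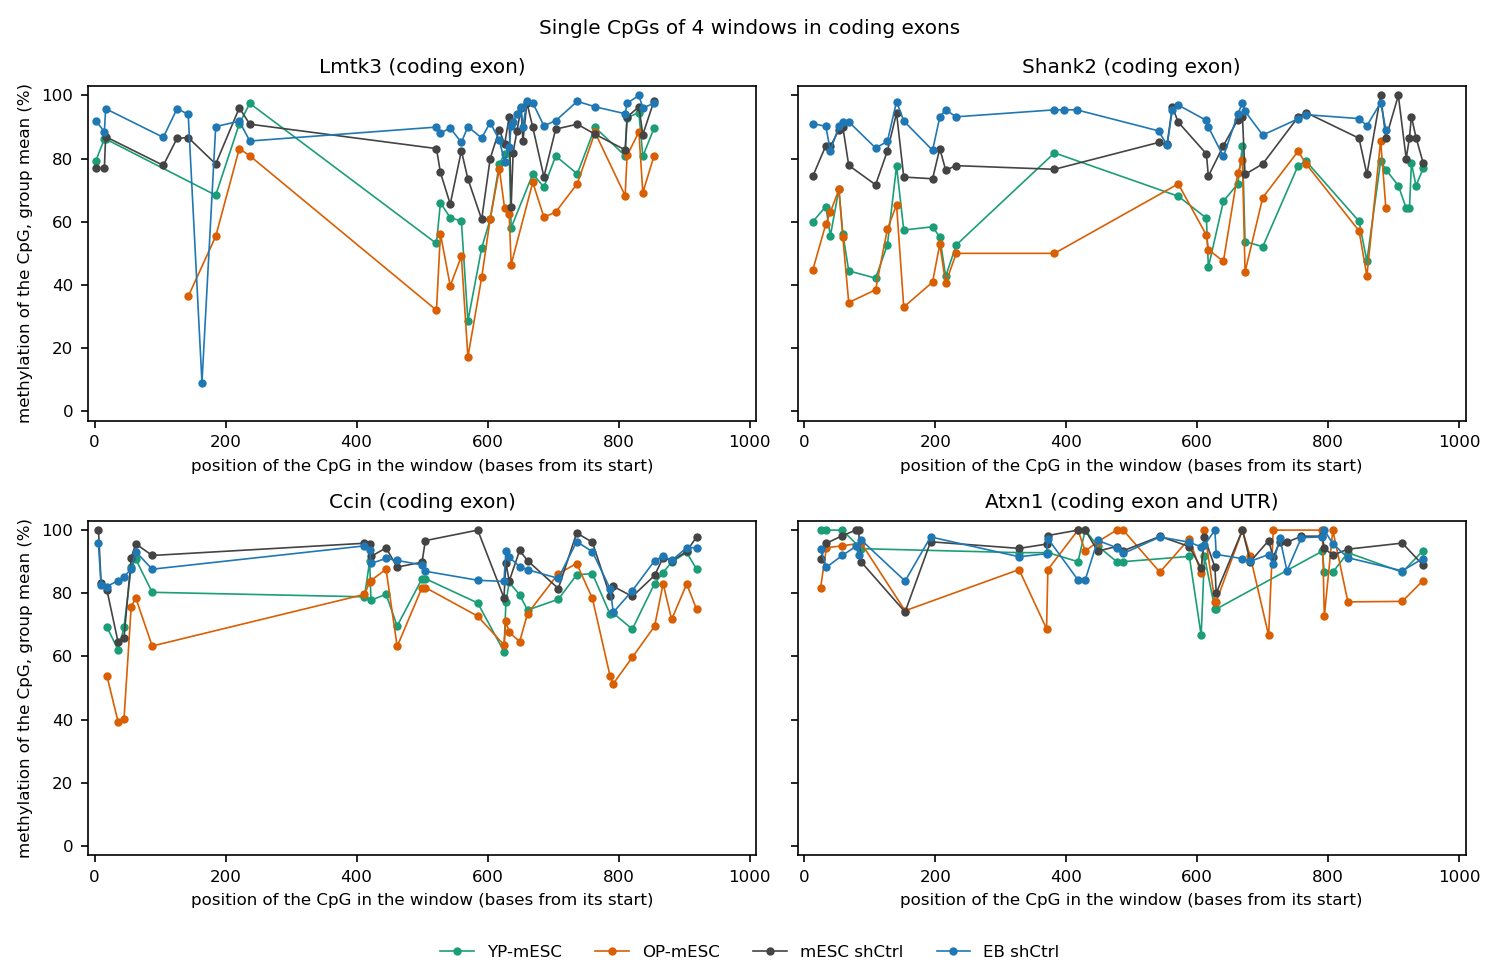
Methylation of single CpGs (%, mean of the replicates that cover them) against position in the window, at Lmtk3, Shank2, Ccin and Atxn1 in YP-mESC, OP-mESC, mESC shCtrl and EB shCtrl. OP-mESCs lie below YP-mESCs at 20 of 21 shared CpGs of Lmtk3 and 17 of 21 of Ccin.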

How the data were processed

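RRBS libraries of 8 groups with 2 replicates each were analysed. Per the submitters' processing notes, tools were CASAVA 1.8.2, Trim Galore 0.2.8 and Bismark 0.7.9, with mm9. The authors deposited 1 file a library with a read count and a percent methylated per CpG cytosine, neither normalized nor pooled, and every listed cytosine has at least 10 reads. Handling of duplicate reads is not given in the sources used here.

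Methylated reads were computed from count and percent, and strands were summed. A window's level is the mean percentage over its CpGs, given with 10 or more CpGs. Tests used windows with 10 or more CpGs in all 4 libraries, a quasi-binomial F test with dispersions squeezed to a trend in reads (limma 3.58.1, R 4.3.3) and Benjamini-Hochberg adjustment over all windows, with a minimum difference of 25 points as in the study's methods. The code was tested on simulated data. With 2 against 2, an exact permutation test cannot go below p = 0.333. Alternatives changed the minimum of reads, CpGs or points, the dispersion, limma on arcsine square root levels, the replicate block, CpGs of extreme coverage and each replicate in turn. Annotation was GENCODE vM1 for mm9, and intervals are 95% Wilson intervals that cover counting error only. Python 3.11.15, numpy 2.4.6, pandas 2.3.3, scipy 1.17.1, pysam 0.24.0 and matplotlib 3.10.9 were used. The genome copy has no repeat masking, so repeat content was not described. The text names all 6 windows, by the number of CpGs, calls, ICR overlap and range of group means, and the 5 windows nearest the limit on each side. Members and lists were chosen with earlier results of these data known. For 2 of the 6 windows no sequence is reported here.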

Additional observations from a re-analysis of the deposited data

Results flagged for a closer look

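The 2 S33Y clones differed from YP-mESCs by unlike amounts at 4 windows, in a test of the clones against each other that was added after their values were seen. In that test 1.96% of 14561 windows had an adjusted p under 0.05 at any size, and of the 4 only Hcn2 was called. Of 560 methylated windows with fewer CpGs, 91.25% were also lower in OP-S33Y #2, with a median difference of -4.23 points. Shank2, Lmtk3 and Ccin did not pass in limma and depended on single replicates. Hcn2 was not called without OP-S33Y #1 replicate 1 or 2. The difference of OP-S33Y #2 minus OP-S33Y #1 was -52.5 percentage points at Hcn2, -17.3 at Shank2, -12.8 at Lmtk3 and -9.76 at Ccin. Against YP-mESCs, Hcn2 differed by 9.21 points in OP-S33Y #1 and -43.4 in OP-S33Y #2, and Shank2 by 12.7 and -4.62. Lmtk3 differed by 1.41 and -11.4 points, and Ccin by 3.33 and -6.20. Both sets of differences share the YP-mESC libraries. Groups of 2 libraries are too small for a check of single libraries that stand apart.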

How the results depend on the processing

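Without either YP-mESC replicate, and with the replicate block, no window of the table was called in the 3 comparisons with YP-mESCs, so the calls of Plagl1 (OP-mESC lower, OP-S33Y #1 higher) and Hcn2 (OP-S33Y #2 lower) went from 1 to 0. Those fits have 1 residual degree of freedom. When replicates were left out, member calls ranged from 0 to 1 in each of these, and likewise for lower calls between the clones. With the block, 1 of the 6 windows was called between the clones and 0 in EBs, where 1 and 5 windows of the whole table were called. In EBs, adjusted p then passed without a call at Hcn2 (0.00358), Shank2 (0.0183), Atxn1 (0.0246) and Ccin (0.0454). The share of all windows that passed at any size in that fit is not given here, so these windows cannot be set against it. Replicate numbers did not pair the libraries, with r of 0.0519, 0.000745, 0.0162 and 0.0799 between same-numbered deviations in the 4 comparisons. With 1 overdispersion shared by all windows, chosen after seeing the data, the block and the left-out replicates kept each count at 1, except OP-S33Y #1 higher without YP-mESC replicate 2 (0), while OP-S33Y #2 higher became 1 without YP-mESC replicate 1. A minimum of 10 points gave 3 lower in OP-mESCs, 2 higher in OP-S33Y #1, 2 lower and 1 higher in OP-S33Y #2, and 3 lower between the clones, where 272 of 9683, 233 of 14511, 325 of 14708 and 146 of 14561 windows were called in either direction, against 31, 18, 32 and 8 at 25 points. A minimum of 20 reads gave 1 higher in OP-S33Y #2, and limma on transformed levels gave 0 higher in OP-S33Y #1. The Lmtk3 difference of OP-S33Y #1 reversed to -1.21 points without YP-mESC replicate 1, and without single replicates it ranged from -1.21 to 4.04. The rule itself gave 65 windows at 20 CpGs, 2 at 40 CpGs, 2 at 20 reads per CpG, 9 with windows shifted by 500 bases, and 12 and 6 without mESC shCtrl replicate 1 and 2. The cause of these changes was not tested.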
